A study of Caenorhabditis elegans with 4 samples.

Results

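The UDP-glucuronosyltransferase family of Caenorhabditis elegans was described in whole first-stage (L1) larvae. Its members were taken as all genes of the deposited count table whose WormBase identifier maps to a symbol starting with ugt-, which gave 67 genes of 20392. Wild type larvae (strain N2) were fed bacteria with the RNAi vector L4440, and the other group was a met-1-/- strain (GW1183) fed bacteria with RNAi against mes-4. The latter are the mutant-RNAi larvae of the text and are marked met-1 mes-4(RNAi) in the figures. MET-1 and MES-4 both methylate lysine 36 of histone H3, and the study asked how expression changes when this methylation is to be depleted. Each group had 2 libraries of total RNA from pooled larvae, whose parents grew on the same RNAi food and which hatched without food and were then briefly refed on it. Strain, met-1 genotype and RNAi differ together between the groups, so their effects cannot be told apart, and the met-1 allele is not named in the labels.

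UDP-glucuronosyltransferases are membrane enzymes of the endoplasmic reticulum. They transfer a sugar from a UDP-sugar donor to small, mostly fat-soluble molecules, which makes these more soluble and easier to export. The reaction is a second phase of detoxification, after oxidation by cytochromes P450 and beside conjugation to glutathione. In C. elegans the intestine is a main site of detoxification, and glucose is a common sugar in its conjugates.

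Total counts were 29081819 to 35106597 per library, and 15008 genes had enough reads to be tested. The met-1 transcript was at 172 and 165 CPM in wild type and at 115 and 111 CPM in mutant-RNAi larvae. The mes-4 transcript was at 34.3 and 37.4 CPM in wild type and at 26.2 and 28.3 CPM in mutant-RNAi larvae. CPM is the standard count scaled to library size, here with library sizes adjusted by the trimmed mean of M-values (TMM). The met-1 transcript was lower (log2 fold change -0.57, SE 0.10, DESeq2 adjusted p = 0.0039), while mes-4 did not pass (-0.39, SE 0.13, DESeq2 adjusted p = 0.337), and neither was absent. The 8 intestinal marker genes summed to 2399 and 2771 CPM in wild type and to 2252 and 2488 CPM in mutant-RNAi larvae, and 0 of the 8 were under 1 CPM. In RNA of whole larvae, fewer cells of a type and less RNA per cell cannot be told apart.

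The family spanned almost the whole range of expression in wild type larvae. Between genes, levels are compared as CPM per kilobase of gene model, and the gene models of the family are 1444 to 2713 bases long. Of the 67 members, 64 passed the filter on low counts, and these ran from 0.135 to 96.5 CPM per kilobase in wild type, with a median of 7.54. The median over all tested genes was 9.77, and 28 of the 64 lay above it. The highest member, ugt-46, was at the 93.3 percentile of tested genes by this level.

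The 8 members with the highest level per length supplied 51.5% of the family's CPM in wild type. The order began with ugt-46 at 96.5 ± 8.57 CPM per kilobase (SD, n = 2), ugt-17 at 91.8 ± 5.92 and ugt-12 at 87.4 ± 4.43. These 3 neighbours in the order differed by less than the SD of the wider one. Next came ugt-58 at 63.1 ± 8.03 and ugt-22 at 61.7 ± 3.47 CPM per kilobase, a step down beyond the SDs, and these again lay within their spread of each other. The gene ugt-22 is known in C. elegans for its part in the conjugation of the drug albendazole. They were followed by ugt-16 at 52.5 ± 19.9, ugt-62 at 48.97 ± 6.56 and ugt-48 at 43.6 ± 1.57 CPM per kilobase. Each of these lay within the larger SD of its neighbour, and the large SD of ugt-16 came from 68.5 CPM in wild type replicate 1 against 118.6 CPM in replicate 2.

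**Figure D1:**
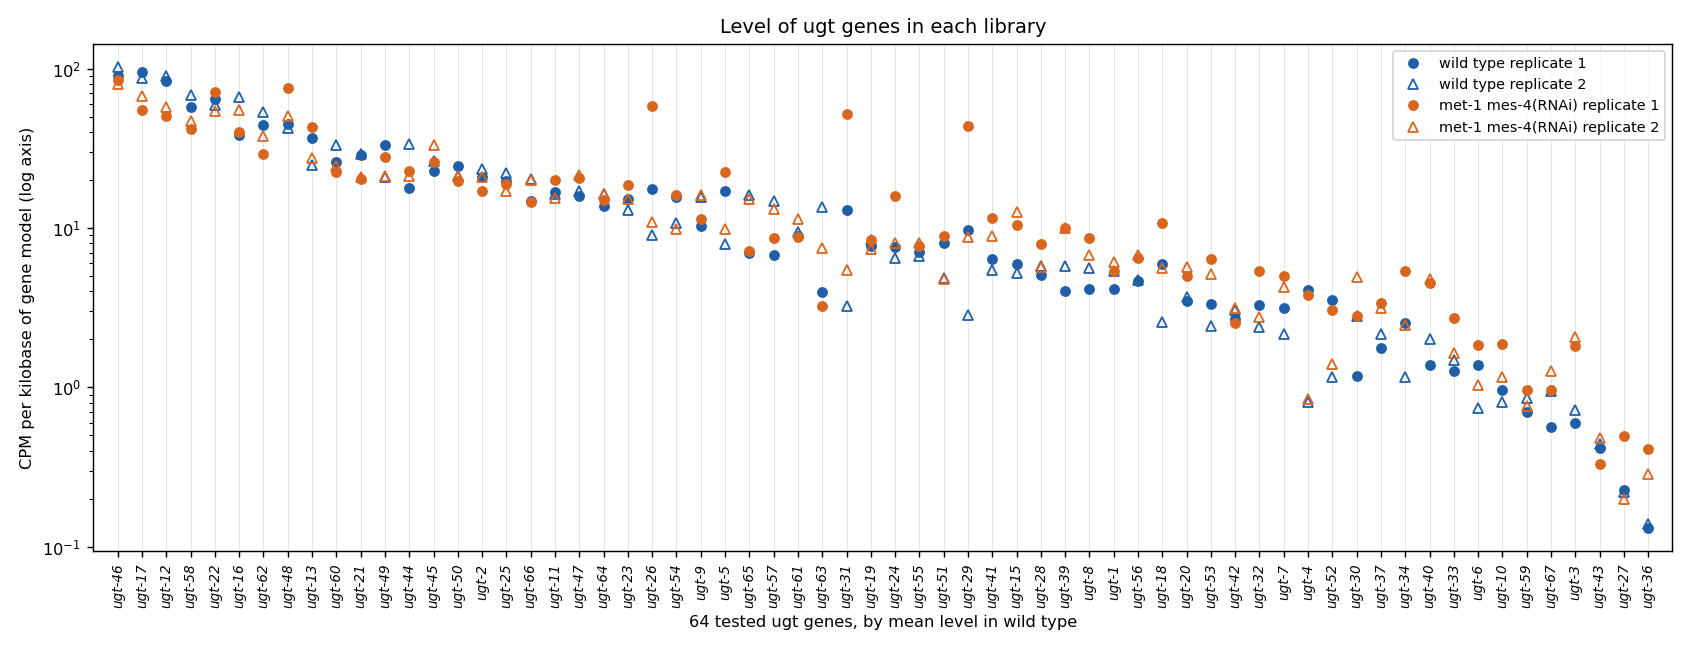
Level of the 64 tested ugt genes in each of the 4 libraries, as CPM per kilobase of gene model on a log axis, ordered from left to right by the mean in wild type (blue, wild type; orange, mutant-RNAi; filled circles, replicate 1; open triangles, replicate 2). The family falls from ugt-46 at 96.5 to ugt-36 at 0.135 CPM per kilobase in wild type, and ugt-26, ugt-31 and ugt-29 stand out through 1 library, mutant-RNAi replicate 1.

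At the other end stood 6 members with a mean under 1 CPM over the 4 libraries. Of these, ugt-14, ugt-35 and ugt-38 did not pass the filter. The counts of ugt-14 were 3 and 6 in wild type and 28 and 9 in mutant-RNAi larvae. The counts of ugt-35 were 0 and 1 in wild type and 2 and 0 in mutant-RNAi larvae. The gene ugt-38 had 0 reads in both wild type libraries and 6 and 0 in mutant-RNAi larvae, so its only reads came from 1 library. The remaining 3 were tested. The gene ugt-36 had 7 and 7 counts in wild type and 20 and 16 in mutant-RNAi larvae. It passed the filter only through the mutant-RNAi libraries, and was the only member to do so. At these counts, differences of a few reads are within counting error.

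Summed over all 67 members, the family was at 1822 and 1898 CPM in wild type and at 2040 and 1729 CPM in mutant-RNAi larvae. The groups overlapped in this sum, and the ratio of the means was 1.01. The 8 leading members together lay below the wild type range, at 912 and 1002 CPM in wild type against 791 and 788 CPM in mutant-RNAi larvae. Their share of the family's CPM was 41.9% in mutant-RNAi larvae, against 51.5% in wild type. These 8 were picked by their wild type level, which enters this comparison and favours a lower value in the other group. No change is read from their sum or share.

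The next question was which members differed between the groups. Of the 64 tested members, 4 rose and 2 fell in mutant-RNAi larvae by DESeq2 (adjusted p under 0.05). Over all 15008 tested genes DESeq2 called 2.45% higher and 1.92% lower. "Rose" and "fell" are used only of these calls, while log2 fold changes and their SE come from edgeR. With edgeR's quasi-likelihood test 0 of the 64 members passed, as did 0% of all tested genes (0 of 15008). At an unadjusted edgeR p under 0.05, 13 members were higher and 5 lower, against 7.74% and 6.82% of all tested genes. The 13 include ugt-36, which passed the filter only through the mutant-RNAi libraries. The smallest edgeR adjusted p in the family was 0.0981. None of the 6 DESeq2 calls held when any 1 library was left out, which leaves 1 library in a group and lowered the calls over all genes too. In those fits their adjusted p ran from 0.0532 (ugt-39 without wild type replicate 2) to 0.844 (ugt-3 without mutant-RNAi replicate 2).

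The members that fell were ugt-12 and ugt-17, the third and the second in level. The gene ugt-12 (WBGene00020592, chromosome V) was at 141 and 151.6 CPM in wild type and at 84.2 and 96.6 CPM in mutant-RNAi larvae. Both mutant-RNAi libraries lay below both wild type libraries by more than either pair differed. The log2 fold change was -0.69 (SE 0.12), a level 0.618 times that of wild type, with a DESeq2 adjusted p of 0.00173 and an edgeR adjusted p of 0.109. The gene ugt-17 (WBGene00007422, chromosome V) was at 164 and 149.8 CPM in wild type and at 94.6 and 115 CPM in mutant-RNAi larvae, again without overlap. Its log2 fold change was -0.58 (SE 0.14), with a DESeq2 adjusted p of 0.0295 and an edgeR adjusted p of 0.174.

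The members that rose were ugt-15, ugt-39, ugt-40 and ugt-3, all in the lower part of the order and all on chromosome V. The gene ugt-15 (WBGene00008097) was at 10.2 and 8.90 CPM in wild type and at 17.8 and 21.5 CPM in mutant-RNAi larvae. Its log2 fold change was 1.04 (SE 0.17), with a DESeq2 adjusted p of 0.00145 and an edgeR adjusted p of 0.0981. The gene ugt-39 (WBGene00017329) went from 7.43 and 10.8 CPM to 18.4 and 18.6 CPM, a log2 fold change of 1.03 (SE 0.22). The libraries of the groups did not overlap in either gene. The DESeq2 adjusted p of ugt-39 was 0.0089, and the edgeR adjusted p was 0.14.

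The gene ugt-40 (WBGene00017331) was at 2.34 and 3.41 CPM in wild type and at 7.72 and 8.18 CPM in mutant-RNAi larvae. Its log2 fold change was 1.47 (SE 0.26), the DESeq2 adjusted p 0.00243 and the edgeR adjusted p 0.107. The rarest of the 4 was ugt-3 (WBGene00013903), with 32 and 36 counts in wild type and 88 and 116 counts in mutant-RNAi larvae. In CPM it went from 0.959 and 1.15 to 2.90 and 3.33, a log2 fold change of 1.56 (SE 0.29), with a DESeq2 adjusted p of 0.0373 and an edgeR adjusted p of 0.111. In both genes each mutant-RNAi library was more than 2 times as high as each wild type library.

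Among the leading members that did not pass, 4 had both mutant-RNAi libraries on the same side of wild type. Of all genes in the abundant class, defined below, 28.8% had both libraries below wild type and 15.4% both above. The leading members were picked by their wild type level, which favours a lower value in the other group. Nothing is read from their count against these shares. The gene ugt-58 was at 99.2 and 118.8 CPM in wild type and at 72.4 and 80.9 CPM in mutant-RNAi larvae (log2 fold change -0.51, SE 0.14, DESeq2 adjusted p = 0.101). The gene ugt-62 was at 75.8 and 91.6 CPM in wild type and at 50.1 and 64.3 CPM in mutant-RNAi larvae (log2 fold change -0.55, SE 0.18, DESeq2 adjusted p = 0.154). The most abundant member, ugt-46, was at 161 and 182 CPM against 151 and 142 CPM (log2 fold change -0.23, SE 0.12, DESeq2 adjusted p = 0.699). In the opposite direction, ugt-48 was at 71.6 and 68.1 CPM against 121 and 80.4 CPM (log2 fold change 0.53, SE 0.21, DESeq2 adjusted p = 0.294).

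The other leading members overlapped between the groups. The gene ugt-22 was at 131 and 121 CPM in wild type and at 146 and 111 CPM in mutant-RNAi larvae (log2 fold change 0.024, SE 0.16). The gene ugt-16 was at 71.9 and 98.1 CPM in mutant-RNAi larvae, inside its wild type range (log2 fold change -0.14, SE 0.30). The sign of both turned when a library was left out, so no direction can be given for them.

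The change was then set against the level of the members. Members were classed by their mean over all 4 libraries as abundant (10 CPM and above, 42 tested), middle (1 to under 10 CPM, 19 tested) or rare (under 1 CPM, 3 tested). The median log2 fold change was 0.075 in the abundant class and 0.57 in the middle class. The medians over all genes tested in the same classes were -0.051 and 0.12. In the middle class 16 of 19 members had a positive log2 fold change (84.2%, against 61.5% of all middle genes), and in the abundant class 24 of 42 (57.1%, against 40.7%). The difference between the classes was not tested, since members of a family are not replicates of a condition.

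Members without overlap between the groups were then counted by class. In the middle class 11 of 19 members had both mutant-RNAi libraries above both wild type libraries and 0 had both below, where all middle genes gave 29.3% above and 16.8% below. Of the middle genes on chromosome V, where 16 of the 19 members lie, 40.1% were above and 11.2% below. In the abundant class 8 were above and 9 below, where all abundant genes gave 15.4% and 28.8%. With libraries scaled by their totals alone, the abundant members came to 12 above and 9 below, and all abundant genes to 1687 above and 1904 below. Over the whole family 20 members were above and 9 below, against 22.7% and 22.2% of all tested genes. The 20 include ugt-36, which passed the filter only through the mutant-RNAi libraries, as did 338 of all tested genes. DESeq2 called 2 members higher and 2 lower in the abundant class (all abundant genes 1.73% and 3.02%). In the middle class it called 2 higher and 0 lower (all middle genes 4.05% and 0.861%). With 0 to 2 members in each count, nothing is read from them against these shares.

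The difference between the classes was also present with other limits. With the tested members split at their own median level, the upper 32 had a median log2 fold change of 0.0034, with 16 above 0, and the lower 32 a median of 0.60, with 26 above 0. The 26 include ugt-36, which passed the filter only through the mutant-RNAi libraries. Both falls lay in the upper set and all 4 rises in the lower set, but with the limit of 10 CPM 2 of the 4 rises were in the abundant class. The share of all genes called was not computed at this split, and nothing is read from these calls. With classes set by the CPM per kilobase, the abundant median was -0.021 (30 members) and the middle median 0.67 (29 members). Without mutant-RNAi replicate 1 the abundant median was -0.089 and the middle median 0.41. Across the 64 members, the mean level and the log2 fold change had a Spearman rho of -0.49, and across all 15008 tested genes -0.29. This is a description of genes measured in the same 4 libraries, which are not independent replicates. The 3 tested rare members had log2 fold changes of -0.083 (ugt-43), 0.62 (ugt-27) and 1.35 (ugt-36).

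**Figure D2:**
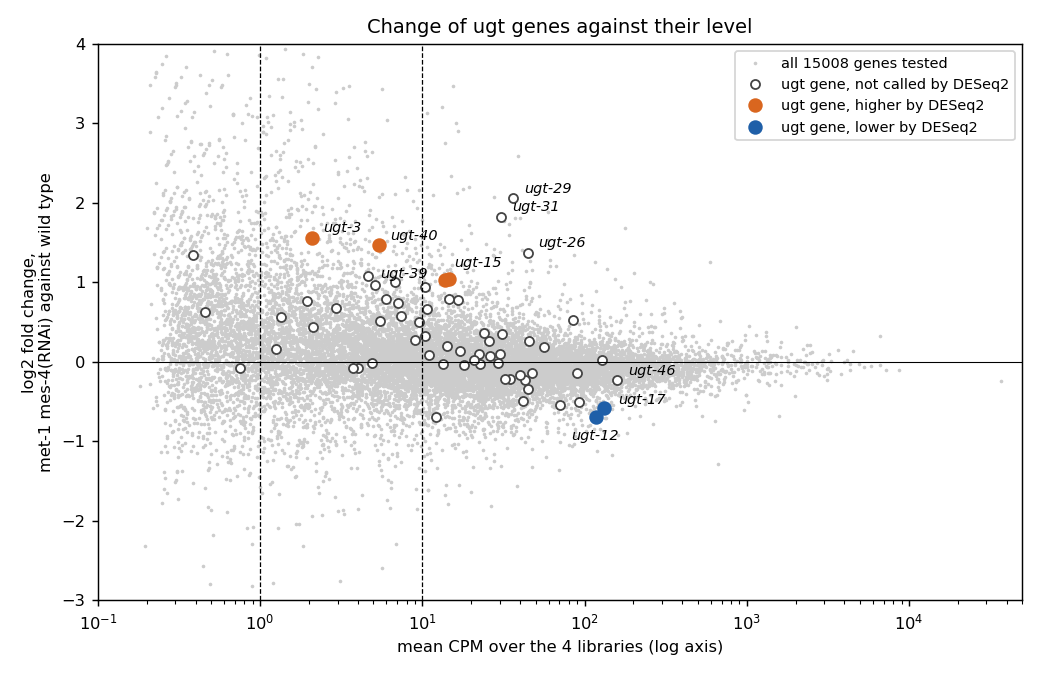
Log2 fold change of mutant-RNAi against wild type larvae (edgeR) plotted against the mean CPM over the 4 libraries on a log axis, for all 15008 tested genes (grey; 53 lie outside the axes) and the 64 tested ugt genes (circles; filled where DESeq2 called them). Dashed lines mark 1 and 10 CPM. The 2 members that fell lie among the most abundant, the 4 that rose lie at lower levels, and ugt-29, ugt-31 and ugt-26 have large fold changes without a call.

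Of the 5 largest positive fold changes among members of at least 1 CPM, those of ugt-29, ugt-31 and ugt-26 came with a wide spread between replicates. The gene ugt-29 was at 21.7 and 6.28 CPM in wild type and at 97.2 and 19.6 CPM in mutant-RNAi larvae (log2 fold change 2.06, SE 0.91, edgeR adjusted p = 0.401). The gene ugt-31 was at 21.5 and 5.36 CPM in wild type and at 86.5 and 9.07 CPM in mutant-RNAi larvae (1.82, SE 1.15, edgeR adjusted p = 0.548). The gene ugt-26 was at 32.7 and 16.9 CPM in wild type and at 108 and 20.4 CPM in mutant-RNAi larvae (1.37, SE 0.80, edgeR adjusted p = 0.517). In all 3, mutant-RNAi replicate 1 was far above the other libraries and replicate 2 lay inside the wild type range. Without mutant-RNAi replicate 1 their log2 fold changes were 0.49, -0.57 and -0.28. Without mutant-RNAi replicate 2 DESeq2 called ugt-26 higher (adjusted p = 3.71e-06). The same library carried the family's highest sum, 2040 CPM.

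Several members differed between replicates in both groups, and in the same direction. On log2(CPM + 0.5), replicates 1 and 2 differed by at least 1 in both groups for 6 of the 64 members (9.38%), against 1.88% of all tested genes. In ugt-31, ugt-29, ugt-5 and ugt-4 replicate 1 was the higher library in both groups, and in ugt-63 and ugt-65 replicate 2 was. The gene ugt-4, for example, was at 6.89 and 1.37 CPM in wild type and at 6.46 and 1.44 CPM in mutant-RNAi larvae. Its replicates differed by more than 4 times, and its groups overlapped (log2 fold change -0.073, SE 0.96). The gene ugt-63 was at 6.80 and 23.2 CPM in wild type and at 5.57 and 12.9 CPM in mutant-RNAi larvae, and its log2 fold change of -0.69 (SE 0.67) turned positive without wild type replicate 2. The 6 members are named because they are all that met this limit, so their choice followed from their values.

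**Figure D3:**
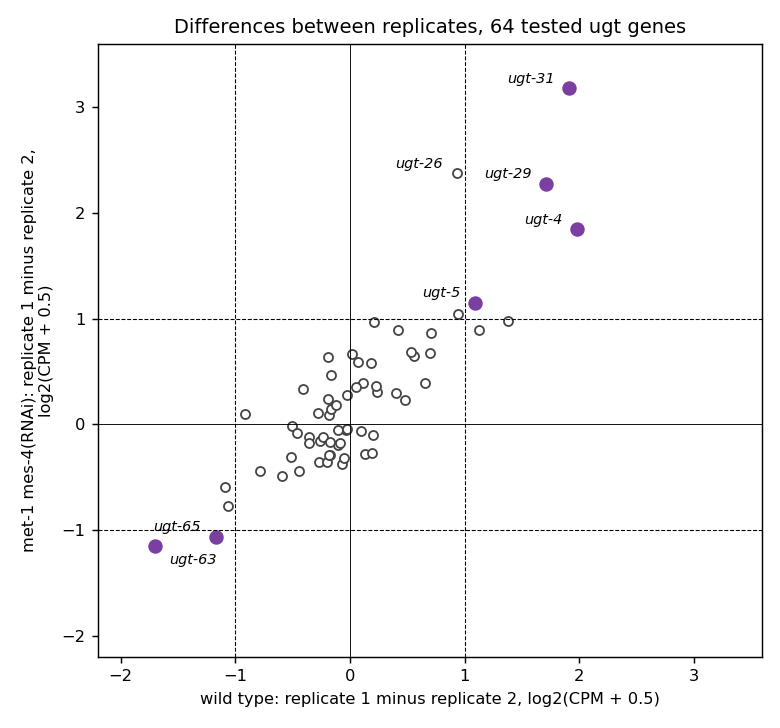
Difference between replicates 1 and 2 on log2(CPM + 0.5) in wild type (horizontal axis) and in mutant-RNAi larvae (vertical axis) for the 64 tested ugt genes; dashed lines mark a difference of 1. Filled points are the 6 members beyond 1 in both groups, and ugt-31, ugt-29 and ugt-4 show the widest differences together with ugt-26 in mutant-RNAi larvae.

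The spread of the family was therefore wide for a comparison of 2 libraries with 2. The median size of the difference between replicates was 0.27 in wild type and 0.35 in mutant-RNAi larvae, and that between the groups was 0.35. Over all tested genes the medians were 0.20, 0.22 and 0.20. The group difference exceeded both replicate differences in 22 members (34.4%), the same share as over all tested genes (34.4%).

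Many members are neighbours in the genome. By the Ensembl annotation of assembly WBcel235, 42 of the 67 members are on chromosome V, 12 on IV, 5 on I, 4 on X, 3 on III and 1 on II. Since the counts were made on build ce10, no coordinates are given. Counting members with at most 5 other protein-coding genes between them as 1 run, 37 members fell into 11 runs and 30 stood alone. Reads of near-identical neighbours may be shared or lost in the authors' counting, which could not be checked here.

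A run of 6 members on chromosome V held ugt-40, ugt-37, ugt-38, ugt-39, ugt-41 and ugt-36, in this order. Of these, ugt-40 and ugt-39 passed DESeq2. In ugt-40, ugt-37, ugt-39 and ugt-41 both mutant-RNAi libraries were above both wild type libraries, with log2 fold changes from 0.73 to 1.47. Of all tested genes on chromosome V, 40.1% of the middle and 22.7% of the abundant ones lay above in this way. Nothing is read from the run's count against these shares. The gene ugt-38 was not tested, and ugt-36 passed the filter only through the group where it was high, so its higher level is not counted here. The gene ugt-41 was at 11.5 and 9.76 CPM in wild type and at 20.7 and 16.05 CPM in mutant-RNAi larvae (log2 fold change 0.79, SE 0.19, DESeq2 adjusted p = 0.0564). The gene ugt-37 was at 4.76 and 5.87 CPM in wild type and at 9.20 and 8.50 CPM in mutant-RNAi larvae (0.73, SE 0.20, DESeq2 adjusted p = 0.195). No member of the run was above 5.93 CPM per kilobase in wild type. This run was picked out for its values. Of the 5 other genes inside it 2 were tested, the fatty acid desaturase gene fat-7 and F10D2.10. Their log2 fold changes were 0.50 (SE 0.86) and 0.57 (SE 0.53), with overlap between the groups in both.

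The other runs that held a called member were mixed in sign. The longest, ugt-12, ugt-11, ugt-9, ugt-10, ugt-67, ugt-8, ugt-14 and ugt-13 on chromosome V, held the fallen ugt-12 next to 6 tested members with log2 fold changes from 0.093 to 0.77. Of these, ugt-8 was at 6.98 and 9.41 CPM in wild type and at 14.6 and 11.5 CPM in mutant-RNAi larvae (0.67, SE 0.23, DESeq2 adjusted p = 0.289). The fallen ugt-17 had as its neighbour ugt-47, at 26.4 and 28.4 CPM in wild type and 34.3 and 35.7 CPM in mutant-RNAi larvae (0.35, SE 0.12, DESeq2 adjusted p = 0.427). The risen ugt-15 stood beside ugt-16, whose groups overlapped, and the risen ugt-3 beside ugt-6, whose groups overlapped as well. The run of ugt-15 also held ugt-18 (0.94, SE 0.50), again with overlap. Among runs without a call, ugt-55 (0.20) and ugt-56 (0.50) were both positive without overlap. In another, ugt-43 (-0.083) and ugt-44 (-0.23) were both negative with overlap.

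**Figure D4:**
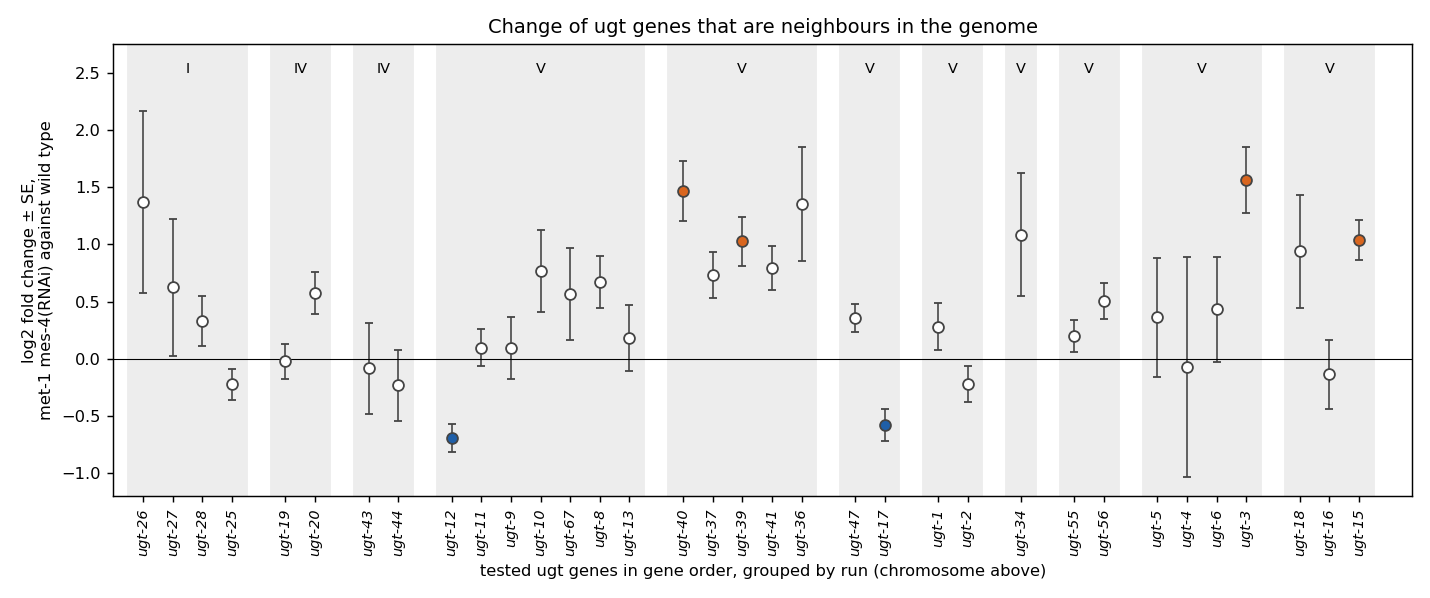
Log2 fold change of mutant-RNAi against wild type larvae with its SE (edgeR) for the tested members of the 11 runs of neighbouring ugt genes, in gene order within each grey block, with the chromosome above (orange, higher by DESeq2; blue, lower). In the run from ugt-40 to ugt-36, ugt-40, ugt-37, ugt-39 and ugt-41 lie from 0.73 to 1.47 (ugt-36 passed the filter only through the mutant-RNAi libraries), while the run with ugt-12 holds values from -0.69 to 0.77.

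By chromosome, 31 of the 39 tested members on V had a positive log2 fold change (median 0.50), against 11 of 25 elsewhere (median -0.024). The 31 include ugt-36, which passed the filter only through the mutant-RNAi libraries. Over all tested genes, 61.9% of those on chromosome V were positive, with a median of 0.11. The members on V were also the rarer ones, with a median of 11.04 CPM against 29.1 CPM elsewhere. Within the abundant class the median was 0.16 for 22 members on V and -0.024 for 20 elsewhere. All abundant genes on V had a median of 0.0035. In the middle class 16 of the 19 members are on V, so chromosome and level cannot be separated among the members there. These 16 had a median of 0.70 with 87.5% above 0, against 0.27 and 70.1% for all middle genes on V.

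The other steps of conjugation were described by gene lists. The list of UDP-sugar supply and transport takes in UDP-sugar metabolism and nucleotide sugar transport in general. It therefore does not measure the supply of the donor to these enzymes. Its genes were lower in sign throughout, with 14 of 14 tested genes below 0. Their median log2 fold change was -0.29, against 0.012 over all tested genes. Over all tested genes 48.5% were below 0. In 10 of the 14 both mutant-RNAi libraries lay below both wild type libraries, as they did in 22.2% of all tested genes and 28.8% of the abundant ones. DESeq2 called 1 of them, gale-1, which encodes the epimerase of UDP-glucose and UDP-galactose and fell from 55.1 and 90.5 CPM to 36.9 and 36.4 CPM (-0.99, SE 0.25, DESeq2 adjusted p = 0.00915). The UDP-glucose dehydrogenase gene sqv-4, whose product makes UDP-glucuronate, was at 25.7 and 32.6 CPM in wild type and at 21.99 and 26.3 CPM in mutant-RNAi larvae, with overlap. The list also held nucleotide sugar transporter genes, of which nstp-1 was at 8.03 and 7.85 CPM in wild type and at 4.85 and 5.40 CPM in mutant-RNAi larvae (-0.63, SE 0.19, DESeq2 adjusted p = 0.318).

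The regulators of detoxification genes showed 0 calls among 13, with a median of -0.0071. Over all tested genes DESeq2 called 2.45% higher and 1.92% lower, so nothing is read from 0 calls among 13. The transcription factor gene skn-1 was at 132 and 126 CPM in wild type and at 157 and 149 CPM in mutant-RNAi larvae (0.25, SE 0.11, edgeR adjusted p = 0.386). The nuclear hormone receptor gene nhr-8, known for its part in resistance to toxins, was at 45.0 and 43.3 CPM in wild type and at 32.7 and 34.99 CPM in mutant-RNAi larvae (-0.38, SE 0.12, edgeR adjusted p = 0.252). Transcript levels do not show the activity of these factors.

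The enzymes of the first phase and the other conjugating enzymes were read against the 2.45% of all tested genes called higher and the 1.92% called lower, or 4.05% and 0.861% in the middle class. Of 72 tested genes of the first phase (cytochromes P450 and their reductase), 5 rose and 0 fell, with a median of 0.51 and 57 above 0. Of the 5, cyp-14A3 (0.120 and 0.0319 CPM in wild type) passed the filter only through the mutant-RNAi libraries. Of the 72, 10 had fewer than 2 wild type libraries over the filter level, and 4 fewer than 2 mutant-RNAi libraries. The P450 gene cyp-34A6 rose from 2.07 and 2.30 CPM to 18.9 and 19.3 CPM (3.13, SE 0.17, DESeq2 adjusted p = 3.61e-27). Of 48 glutathione S-transferase and sulfotransferase genes, 11 rose and 1 fell, with a median of 0.53 and 38 above 0. The transferase gene gst-24 rose from 66.1 and 102.4 CPM to 263 and 281 CPM (1.69, SE 0.23, DESeq2 adjusted p = 1.47e-09), and gsto-1 was the one that fell (-0.81, SE 0.18, DESeq2 adjusted p = 0.00621). For the ugt family these values were 4 rises, 2 falls and a median of 0.23, and the median over all tested genes was 0.012. Of 29 export transporter genes 1 rose and 2 fell, with a median of 0.035. They were pgp-8, a P-glycoprotein gene that rose from 3.595 and 3.54 CPM to 29.9 and 27.5 CPM, and pgp-11 (-0.73) and mrp-5 (-0.48), which fell. These comparisons share the same 4 libraries, and differences between the lists were not tested.

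**Figure D5:**
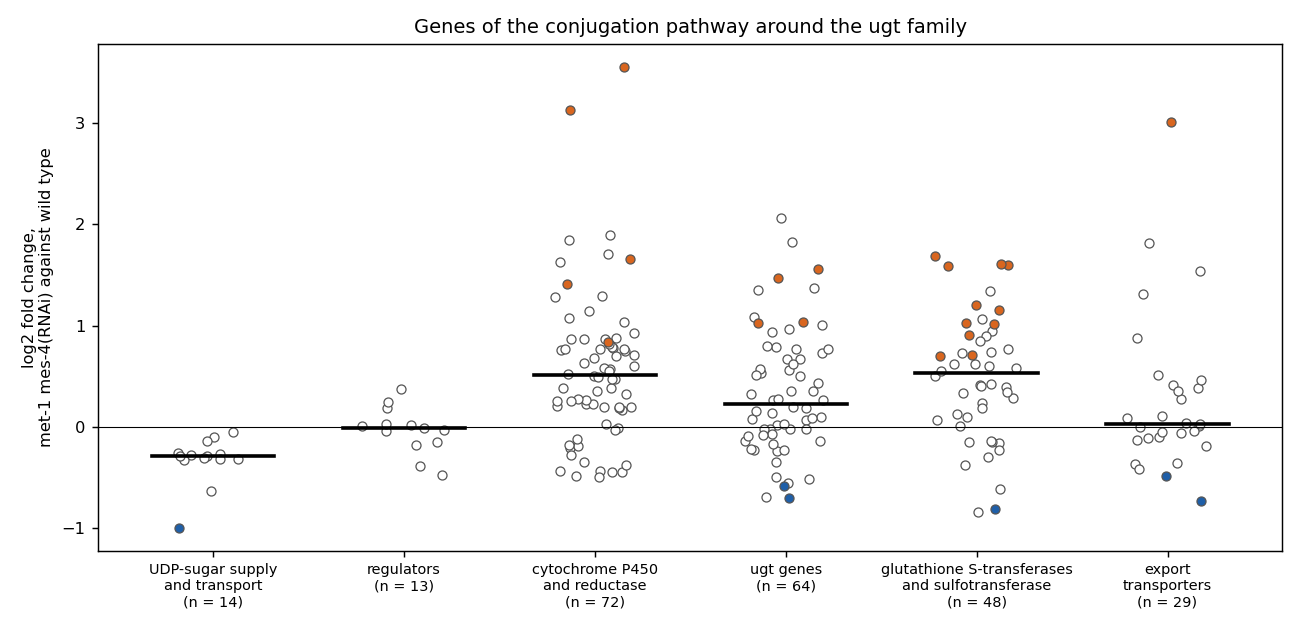
Log2 fold change of mutant-RNAi against wild type larvae (edgeR) for each tested gene of the conjugation pathway, by list; each point is a gene (orange, higher by DESeq2; blue, lower) and each bar the list's median. The medians are -0.29 for UDP-sugar supply and transport, -0.0071 for regulators, 0.51 for cytochromes P450, 0.23 for ugt genes, 0.53 for transferases and 0.035 for export transporters.

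Markers of other cell types were read beside these results. The summed CPM of the hypodermal, neuronal, excretory canal and body wall muscle lists overlapped between the groups, with myo-3 of the muscle list called higher. The 4 germline genes summed to 70.6 and 73.6 CPM in wild type and to 75.0 and 88.6 CPM in mutant-RNAi larvae, with 0 calls. The median log2 fold change of the germline list was -0.17, opposite in sign to the change of its sum. The 3 glial genes measured summed to 282 and 302 CPM in wild type and to 220.5 and 213.8 CPM in mutant-RNAi larvae, with vap-1 called lower. Of the 4 genes chosen as products of later stages, msp-3 and msp-19 were at 0 in all libraries. The list summed to 0.479 and 0.447 CPM in wild type and to 3.66 and 4.88 CPM in mutant-RNAi larvae, and the yolk protein gene vit-6 was called higher. The part of these differences in the changes of ugt genes was not tested.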

How the data were processed

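The authors deposited raw counts per gene, with gene model lengths, and a table of log2 values in which every value equalled log2(count × factor + 8), as worked out from the deposited values. The submitters' processing notes list ce10 as build. Which aligner, counter and strand option were used is not given in the sources used here. Libraries were made with the ScriptSeq Complete Gold kit, per the labels' protocols. Symbols came from a table of WormBase identifiers (19182 of 20392 matched), and chromosomes and gene order from the Ensembl annotation of WBcel235. Counts of all genes were fitted in R 4.3.3 with edgeR 4.0.16 (filterByExpr, TMM factors, quasi-likelihood F-test). DESeq2 1.42.0 (Wald test, no shrinkage) was the second count test. Both used Benjamini-Hochberg adjustment, edgeR over all genes tested. DESeq2 ran with its default filter on mean count, which gives some genes of low count, such as gsto-2, no adjusted p. Such genes stay in the shares of all genes tested, as not called. No tested ugt gene lacked an adjusted p. Each SE was obtained from edgeR's log2 fold change and the root of its F value. The alternatives used limma 3.58.1, and figures matplotlib 3.10.9. The procedure was tested on simulated data. A gene at 5 CPM rests on well over 100 reads, so the spread between libraries (biological coefficient of variation 22.1%) limits precision more than depth. The series text describes the replicates as biological and independent.

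Genes named are the called members, the 8 highest in wild type per length, the 5 largest fold changes in each direction at 1 CPM or more, ugt-22, and up to 3 genes per list. Genes outside this rule are named for their position in a run, their rank in a list of markers or a count of 5 or fewer, after their values were seen. Members, lists and tests were chosen with earlier results of these data known. No sequences were used here, so a planned comparison of protein identity was not made.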

Additional observations from a re-analysis of the deposited data

How the results depend on the processing

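With 2 libraries a group, the calls depended on the tool and on each library. The count of members called was 0 by edgeR and 6 by DESeq2. It was also 0 in edgeR fits with other scalings or filters, in limma-voom and in limma on the deposited log2 values. Of all genes tested, edgeR called 0.668% without a filter and 0.0201% with a filter of 5 CPM, and the other fits 0%. DESeq2 called the same 6 members without a filter, with 3.36% of all genes tested. With a filter of 5 CPM it called 5 of them and ugt-41, with 5.07% of all genes tested, and ugt-3 was then not tested. Leaving out 1 library, DESeq2 called none of the reported members. Such a fit has a single library in 1 group and called fewer genes over the whole table as well, so this is not particular to the family. In edgeR fits without 1 library, the median log2 fold change of the family ranged from 0.13 to 0.35, that of the abundant class from -0.089 to 0.18, and that of the middle class from 0.41 to 0.78. The abundant median was -0.021 with classes by CPM per kilobase and 0.0034 with the split at the median. The cause of these shifts was not tested. Scaling by library size only gave a median over all genes of 0.062.

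The labels number the replicates 1 and 2 in each group and do not tie the numbers together. Replicate differences correlated between the groups across genes (Pearson r 0.70 over all tested genes, 0.86 over the 64 members), which are not independent replicates. With the replicate block, edgeR called 28 of 64 members (21 higher, 7 lower) and 20.3% of all tested genes. DESeq2 with the replicate block, a fit added after seeing the data, called 12 higher and 5 lower, and 9.29% of all tested genes. The edgeR calls under the block took in ugt-29 (log2 fold change 1.94, adjusted p = 0.00014), ugt-31 (1.52, adjusted p = 0.00362) and ugt-26 (1.05, adjusted p = 0.0284), and the DESeq2 calls took in ugt-29.

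The sign of some uncalled members turned in edgeR fits without 1 library. The log2 fold change ranged from -0.19 to 0.20 for ugt-22, where it was also -0.035 without wild type replicate 2. It ranged from -0.49 to 0.31 for ugt-16, where it was 0.068 without the first mutant-RNAi library. The range was -0.28 to 2.12 for ugt-26, -0.57 to 3.14 for ugt-31 and -1.44 to 0.45 for ugt-63. Signs were followed across the alternatives only for the called members, the leading members, ugt-26, ugt-29, ugt-31 and ugt-63. Among these, the signs of the other 11 held. For the further members named in the text, such as ugt-4 and ugt-65, this was not examined. The cause of the turns in sign was not tested.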
